A study of Mus musculus with 60 samples.

Results

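The expression of 8 genes that mark the formative and primed states of pluripotency was followed through 60 nascent RNA libraries of mouse embryonic stem cells (mESCs) and neuronal progenitor cells (NPCs). They are Fgf5, Otx2, Pou3f1, Zic2, Zic5, Dnmt3a, Dnmt3b and Dnmt3l. They were taken by symbol, as the rows of the count table whose Ensembl transcript belongs to one of these genes in GENCODE M21. All 8 genes were found, in 9 of the 27665 rows, because Dnmt3a has one row for its long form and one for a shorter form that starts inside it. The rule itself uses no measured value, but the 8 genes were chosen with earlier results of these data known. Members are counted as 8 genes, with Dnmt3a judged by its long row.

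Naive pluripotency is the ground state that mESCs keep in medium with LIF and inhibitors of MEK and GSK3. Cells that leave it pass through a formative state and then a primed one, as the epiblast does around implantation. On the way the growth factor gene Fgf5 and the transcription factor genes Otx2 and Pou3f1 (also called Oct6) are switched on. The zinc finger genes Zic2 and Zic5, which lie head to head in the genome, belong to the same step. DNA methylation is laid down at this time by the methyltransferases encoded by Dnmt3a and Dnmt3b, helped by Dnmt3l, a relative without catalytic activity. Otx2, Pou3f1, Zic2 and Zic5 are used again later, in neural tissue.

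Nascent RNA was measured by EU-seq, in which cells take up 5-ethynyl uridine for 20 min and the labelled RNA is sequenced. All mESCs were E14 cells in 2i medium with LIF. The label GFP-AID-Rad21 marks a line in which the cohesin subunit RAD21 is destroyed when auxin (IAA, 500 µM) is added. An initial experiment on it holds 2 untreated and 2 treated libraries (4 h), and an additional one 12 untreated and 12 treated libraries (4 h). NPCs made from the same line, by way of epiblast stem cells, are represented by 2 untreated libraries and by pairs treated with IAA for 1 h, 2 h or 4 h. A further pair received A-485 (10 µM, 1 h), which blocks the histone acetyltransferases CBP and p300. The line GFP-AID-Ctcf, in which the same auxin system destroys the insulator protein CTCF, has 4 untreated and 4 treated libraries (IAA, 6 h), 2 of each unstranded and 2 of each stranded. In GFP-FKBP12F36V-Ctcf (Y226A/F228A), here CTCF-YF-AA, both alleles of Ctcf carry the substitutions Y226A and F228A and a tag for degradation by dTAG13 (200 nM per the labels). Its libraries are 2 untreated, 2 at 2 h and 2 at 4 h. In bTAG-delN-CTCF/dTAG-CTCF-delC, here dN-dC, one allele lacks the N-terminal part of CTCF and is degraded by AGB1, and the other lacks the C-terminal part and is degraded by dTAG13 (100 nM of each by the labels, although the names of the 4 count columns with dTAG13 give 200 nM). Its stranded libraries are 2 untreated and, at 2 h, pairs with AGB1, with dTAG13 or with both. The CTCF-YF-AA and dN-dC lines were grown from picked colonies, so a line may stand for 1 clone, and their untreated cells already lack normal CTCF. A degron removes protein, so the RNA of the targeted gene does not check a depletion. No library had IAA, dTAG13 or AGB1 in cells without a degron, so protein loss and the compound itself cannot be told apart. The treatment text of 18 libraries, those of GFP-AID-Ctcf, CTCF-YF-AA and the initial GFP-AID-Rad21 experiment, controls among them, speaks of DMSO or triptolide, an inhibitor of transcription, which no other label of theirs names. These libraries are grouped by their titles. Whether replicates were separate cultures is not stated for every group, and p-values then measure the spread between these libraries.

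The 56 libraries counted over whole genes held 4027449 to 21898781 counts, with a median of 13579700.5. The 151 pairs of replicates all differed by more than sampling noise. The stranded GFP-AID-Ctcf libraries numbered 2, control and IAA alike, stood apart from their replicates, and values without them are given beside the comparisons that use them. Group means of the naive gene Nanog and the core gene Pou5f1 ran from 312 to 718 CPM (counts scaled to library size, by TMM) and from 80.1 to 205 CPM in untreated mESCs, and were 1.91 and 0.435 CPM in untreated NPCs. The 18 naive genes summed to 4860 to 6960 CPM in the mESC libraries and to 333 to 367 in the NPC ones. The 11 neural progenitor markers summed to 1300 to 1680 CPM in NPCs and to 76.5 to 142 in mESCs. The NPC libraries also held 6 fibroblast markers at a sum of 2810 to 4030 CPM and 6 primitive endoderm markers at 328 to 428. In mESCs those sums were 0.6 to 10.2 and 5.66 to 56.9 CPM. Of the endoderm markers in NPCs, Pdgfra held 260 to 358 CPM and Dab2 44.6 to 66.1. Gata6 stood at 2.65 to 4.41 CPM, Gata4 and Sox7 reached at most 0.795 and 0.424, and Sox17 had 0.

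Counts cover the whole body, introns included, of the transcript that stands for each row, and positions are those of GENCODE M21 on GRCm38 (mm10). Fgf5 spans chr5:98254184-98277030 on the plus strand with 3 exons. Otx2 spans chr14:48657851-48673819 on the minus strand, and 32% of it is overlapped by Otx2os1 on the other strand. Reads of this pair cannot be told apart without strand, so Otx2 is uncertain wherever strand was not used, and whether the counting used it is not stated. Pou3f1, a gene of 1 exon, spans chr4:124656807-124660655. Zic5 (chr14:122456795-122465677, minus strand) and Zic2 (chr14:122475435-122479852, plus strand) start 9758 bases apart. The long Dnmt3a row spans chr12:3807030-3914443, and the short one covers its last 21.1%, from 3891744 to the same end. How reads in the shared stretch were assigned is not given in the sources used here. Dnmt3b spans chr2:153649450-153687730 and is followed after 8922 bases by its paralog Dnmt3c, and Dnmt3l spans chr10:78049842-78063622.

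In untreated cells the members did not move as 1 block between lines. Against the additional mESC controls, NPCs held more Dnmt3a and Zic2 and less Dnmt3b, Dnmt3l and Zic5, while Otx2 did not pass the test. Levels also differed between the mESC lines, and in unstranded GFP-AID-Ctcf controls Zic5 was about as low as in NPCs, at 13.7 and 17.9 CPM against 14.1 and 14.3. Among mESC groups the 2 Zic genes and Dnmt3b were low together in the unstranded GFP-AID-Ctcf controls. The stranded controls lay apart, at 18.9 and 44.6 CPM for Zic2, 19.1 and 41 for Zic5, and 38.7 and 71.8 for Dnmt3b. Dnmt3l was lowest of all mESC groups in the dN-dC line. These are comparisons of lines, and line, experiment, cell type and library preparation cannot be told apart in them. In bulk libraries, fewer cells that transcribe a gene and less RNA in each cell cannot be told apart either.

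Fgf5, the ligand of the group, was close to the detection limit everywhere. Its 12 untreated libraries of the additional experiment held 1 to 8 counts each, and no mESC group reached the mean count of 20 that was asked for a test. In untreated NPCs it stood at 0.776 and 0.869 CPM, above every one of the 12 mESC libraries (0.0639 to 0.458 CPM). From 32 counts in 2 NPC libraries against 34 in 12 mESC libraries, the ratio was 4.37 with a 95% exact interval of 2.61 to 7.31, which covers counting error only.

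Zic2, which encodes a zinc finger transcription factor, stood at 99.3 and 101 CPM in untreated NPCs. In the 12 untreated mESC libraries of the additional experiment it ranged from 52.7 to 66.1 CPM with a median of 60.9. Both NPC libraries lay above all of these. Its neighbour Zic5 went the other way, with 14.1 and 14.3 CPM in NPCs against 45.0 to 54.0 CPM (median 48.4) in mESCs, again without overlap. The fitted log2 difference of NPCs from mESCs was 0.78 ± 0.12 (SE) for Zic2 and -1.73 ± 0.15 for Zic5, with adjusted p = 5.63e-06 and 7.89e-12 (edgeR quasi-likelihood test). Otx2, a homeodomain factor of the early epiblast and the forebrain, gave 10.3 and 12.2 CPM in NPCs within or just under the mESC range of 10.9 to 15.2 CPM (log2 difference -0.13, adjusted p = 0.324).

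Of the methylation genes, Dnmt3a stood at 283 and 291 CPM in NPCs against 41.8 to 49.8 CPM (median 44.5) in mESCs, a log2 difference of 2.73 ± 0.10 (adjusted p = 5.99e-19). Its short row differed by 2.77 ± 0.09. Dnmt3b had 7.33 and 9.31 CPM in NPCs against 70.4 to 87.7 (median 79.8), and Dnmt3l had 0.194 and 0.543 CPM against 17.9 to 23.1 (median 20.6). Neither gene had an NPC library near the mESC range, and the log2 differences were -3.19 ± 0.15 and -5.74 ± 0.23 (adjusted p = 4.45e-17 and 9.28e-19). The Dnmt3l value rests on 14 NPC counts in all.

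In this comparison 6 of the 7 tested members were called, 3 higher and 3 lower, where 74.1% of all tested genes were called. A gene is called here when the adjusted p is under 0.05 and the change is at least 1.3-fold after the median of expressed genes has been subtracted. The sixth was Pou3f1, a POU factor of primed and neural cells, with 1.3 and 1.65 CPM in NPCs against 0.338 to 1.41 in mESCs. The ranges overlap, the log2 difference of 0.81 ± 0.34 had an adjusted p of 0.0475, and the call is lost by DESeq2 (adjusted p = 0.0714) or without either NPC control (0.0761 and 0.3). The fibroblast, endoderm and neural marker sums given above move with this comparison, and their part in it was not tested.

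**Figure D1:**
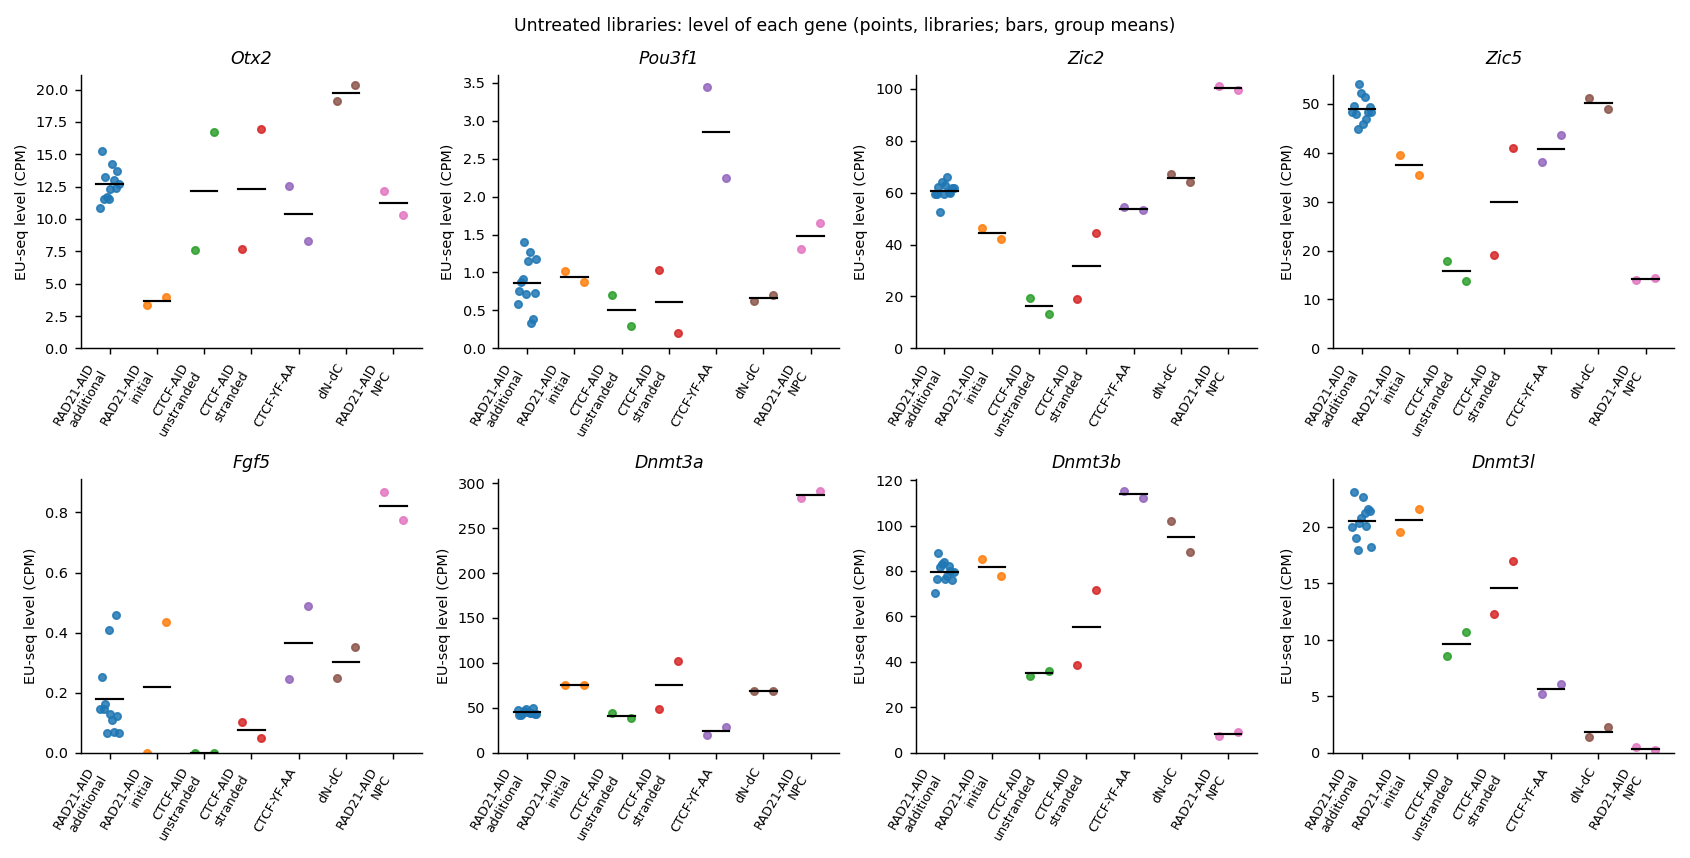
EU-seq level in CPM (linear axis from 0) of each of the 8 genes in every untreated library, by group. Points are libraries and bars are group means. Zic2 and Dnmt3a are highest in NPCs, Dnmt3b and Dnmt3l are lower in both NPC libraries than in any mESC library, and the stranded GFP-AID-Ctcf pair lies far apart for Zic2, Zic5, Dnmt3a and Dnmt3b.

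The initial and the additional experiment used the same line. Otx2 stood at 3.38 and 3.99 CPM in the initial controls, below all 12 additional ones (10.9 to 15.2), and Dnmt3a at 75.3 and 75.6, above all of them (41.8 to 49.8). Both were called, at log2 -1.64 ± 0.28 and 0.88 ± 0.13 (adjusted p = 4.81e-06 and 1.79e-05), and they were 2 of 7 tested members where 41% of genes were called. Zic2 (42.1 and 46.4 CPM) and Zic5 (35.5 and 39.5) also lay under the additional controls. Their differences of -0.32 and -0.25 were under 1.3-fold, and without centring, which moves all genes by 0.131 here, they are called too.

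Untreated GFP-AID-Ctcf cells (unstranded libraries) differed from the initial GFP-AID-Rad21 controls in 6 of 7 tested members, against 49.3% of genes. Zic2, Zic5, Dnmt3b, Dnmt3l and Dnmt3a were lower, by -1.58, -1.39, -1.37, -1.25 and -1.02 on the log2 scale (SE 0.15 to 0.21). For Zic2 the libraries stood at 13.3 and 19.4 CPM against 42.1 and 46.4. The 5 genes did not overlap between the groups, and the share of all genes that do not was not counted. Otx2 was higher, at 7.63 and 16.7 CPM against 3.38 and 3.99 (1.56 ± 0.33, adjusted p = 6.89e-05), although the 2 GFP-AID-Ctcf libraries differed more from each other than the lower of them did from the other line.

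The CTCF-YF-AA line was compared with these same unstranded GFP-AID-Ctcf controls, and 6 of 7 members were called where 37.9% of genes were. Higher in CTCF-YF-AA were Pou3f1 (2.24 and 3.45 CPM against 0.298 and 0.707, log2 2.32 ± 0.59), Zic2 (53.2 and 54.4 against 13.3 and 19.4, 1.67 ± 0.21), Dnmt3b (112 and 115 against 33.9 and 36.0, 1.66 ± 0.16) and Zic5 (1.35 ± 0.19). Dnmt3l and Dnmt3a were lower, by -0.78 ± 0.21 and -0.76 ± 0.21, and each of these 2 calls is lost when either of 2 libraries is left out. For Dnmt3l these are GFP-AID-Ctcf control 2 (adjusted p = 0.071) and CTCF-YF-AA control 2 (0.0541), and for Dnmt3a GFP-AID-Ctcf control 1 (0.0519) and CTCF-YF-AA control 1 (0.0615).

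Against the stranded GFP-AID-Ctcf controls, dN-dC cells differed in 4 of 7 members (40.3% of genes). Dnmt3l stood at 1.37 and 2.23 CPM in dN-dC and at 12.2 and 17.0 in GFP-AID-Ctcf, a log2 difference of -3.04 ± 0.25 (adjusted p = 7.96e-11), the only one of the 4 that holds when the fit uses these 2 groups alone. Zic2, Dnmt3b and Zic5 were higher, by 0.98, 0.75 and 0.68. Without the stranded control numbered 2 these values were 1.77, 1.27 and 1.36, and that of Dnmt3l was -2.77. Without the one numbered 1 they were 0.58, 0.43 and 0.32, with -3.20 for Dnmt3l, and the call of Zic5 was lost. Otx2 gave 0.60 ± 0.26 (adjusted p = 0.0632), but it was called at 1.33 without the stranded control numbered 2 (adjusted p = 2.85e-05) and also by DESeq2 (0.0316) or with RLE scaling (0.0445). Dnmt3a gave -0.17 with all libraries, 0.48 without the stranded control numbered 2 and -0.55 without the one numbered 1. With a library left out, 4 to 6 members were called. Between the stranded and unstranded GFP-AID-Ctcf controls, 5 of 7 members were called higher with strand (29.5% of genes), and without the stranded control numbered 2 none of them was, at log2 values of 0.08 to 0.28.

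Per kb of the counted gene body, Zic2 had the highest level of the 8 genes in all 7 untreated groups, from 3.69 CPM per kb in unstranded GFP-AID-Ctcf cells to 22.7 in NPCs. Zic5 came second in the 6 mESC groups and Dnmt3a second in NPCs, at 2.67. In the 12 additional controls the order was Zic2 (13.8 CPM per kb), Zic5 (5.51), Dnmt3b (2.08), Dnmt3l (1.49), Otx2 (0.795), Dnmt3a (0.42), Pou3f1 (0.223) and Fgf5 (0.00777), and no neighbours in it had overlapping library ranges. In stranded GFP-AID-Ctcf cells the ranges of Zic2 and Zic5 overlapped, as did those of Dnmt3b, Dnmt3l, Otx2 and Dnmt3a from one to the next. Per kb of exon in place of gene body, Dnmt3b took first place in 4 of 7 groups and Zic2 kept it in 3, so the order among genes with and without long introns depends on the length used.

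Over the 15 mESC groups the mean log2 level of Zic2 followed that of Zic5 with a Pearson correlation of 0.979, the second highest of 16782 genes for Zic2 and the highest for Zic5. The most alike gene for Zic2 was Arpp19 (0.980), and the third was Sept11 (0.975). For Zic5 the next were Ext1 (0.969) and Sept11 (0.968). Dnmt3b correlated with Zic2 at 0.921 and with Zic5 at 0.935, below its own closest genes Lats2 (0.973), Chuk (0.964) and Bmp8a (0.959). The closest to Dnmt3l were Ctnnd2 (0.985), Sept10 (0.977) and Ano6 (0.975), to Dnmt3a Fyco1 (0.978), Cenpi (0.971) and Sppl3 (0.961), to Otx2 Hsp90b1 (0.935), Slc35e1 (0.931) and Phf19 (0.931), and to Pou3f1 Deup1 (0.942), Atl1 (0.931) and Lacc1 (0.921). Dnmt3l ran against Otx2 (-0.68). These 15 points come from 6 sets of groups that share line, experiment and library preparation, so the values mostly describe differences between lines, and Fgf5 was too low to be included.

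After 4 h of RAD21 loss Zic2, Zic5, Dnmt3b and Dnmt3l were lower in mESCs, and Otx2 and Dnmt3a stood near their control level. The additional experiment gives the closest view, with 12 libraries on each side. There 4 of 6 tested members were called, all lower, where 12.3% of all genes were called. The median log2 change of the 6 was -0.60, beside 0.03 over all tested genes. Fgf5 and Pou3f1 were under the count minimum.

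Zic2 ranged from 52.7 to 66.1 CPM (median 60.9) in the 12 controls and from 33.1 to 37.6 (median 35.3) in the 12 libraries with IAA. Zic5 ranged from 45.0 to 54.0 CPM (median 48.4) without and from 30.3 to 33.7 (median 32.4) with IAA. For both genes every depleted library lay below every control. The log2 changes were -0.76 ± 0.03 and -0.59 ± 0.03 (SE), a fall of 41.0% and 33.5%, with adjusted p = 1.46e-28 and 8.2e-24 (edgeR).

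Dnmt3b, the methyltransferase most active in the epiblast, ranged from 70.4 to 87.7 CPM (median 79.8) in controls and from 47.1 to 55.3 (median 52.4) with IAA. Dnmt3l, its cofactor, ranged from 17.9 to 23.1 CPM (median 20.6) and from 10.8 to 14.2 (median 12.3). The groups did not overlap for either gene. The log2 changes were -0.60 ± 0.03 and -0.70 ± 0.05, with adjusted p = 2.74e-25 and 1.6e-18. Dnmt3a, the methyltransferase that persists in somatic cells, ranged from 41.8 to 49.8 CPM in controls and from 39.8 to 48.9 with IAA, with wide overlap (log2 -0.03 ± 0.03, adjusted p = 0.269). Its short row gave -0.14 ± 0.05 (adjusted p = 0.00766), less than 1.3-fold. Otx2 ranged from 10.9 to 15.2 CPM without and from 10.9 to 14.7 with IAA (0.05 ± 0.05, adjusted p = 0.476), an interval of -0.05 to 0.15 for the log2 change.

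The untested pair gave overlapping ranges. Fgf5 stood at 0.0639 to 0.458 CPM in controls and at 0 to 0.465 with IAA, and Pou3f1 at 0.338 to 1.41 and at 0.514 to 1.10. In each group 1 library carried the batch label CC52 and 11 carried CC53. The ratio of depleted to control level was 0.59 in CC52 and 0.582 in CC53 for Zic2, 0.63 and 0.658 for Zic5, 0.743 and 0.645 for Dnmt3b, and 0.561 and 0.613 for Dnmt3l. Markers of other cell types moved as well, and their part in these results was not tested. Most of the trophectoderm sum is Tfap2c, with a median of 44.2 CPM over mESC libraries beside 4.38 for Cdx2. Trophectoderm markers (6 genes) summed to 46.6 to 55.1 CPM in controls and 27.9 to 33 with IAA, neural progenitor markers (11) to 120 to 134 and 108 to 119, primitive endoderm markers (6) to 10.7 to 13.8 and 14.5 to 17.1, and fibroblast markers (6, of which 3 never reached 1 CPM in mESCs) to 7.03 to 10.2 and 5.52 to 7.61.

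In the initial experiment the same 4 genes were called lower, again 4 of 6 tested members, against 4.74% of all genes, with a median change of -0.39 beside 0.01 over all genes. Dnmt3b stood at 77.9 and 85.3 CPM in controls and 58.4 and 59.0 with IAA, and Dnmt3l at 19.6 and 21.6 and at 13.8 and 15.3. Zic2 stood at 42.1 and 46.4 and at 33.1 and 33.9, and Zic5 at 35.5 and 39.5 and at 27.8 and 29.3. The libraries with IAA lay below both controls for all 4 genes. The same held for Dnmt3a, which was not called (66.3 and 74.1 CPM against 75.3 and 75.6 in controls). How many of all genes separate in this way was not counted. The log2 changes were -0.47 ± 0.08 for Dnmt3b, -0.50 ± 0.14 for Dnmt3l, -0.39 ± 0.10 for Zic2 and -0.38 ± 0.11 for Zic5, with adjusted p of 9.41e-07, 0.00679, 0.00241 and 0.00629. With 2 libraries a side the calls are less firm: DESeq2 called Dnmt3b alone, and with any 1 library left out 1 to 3 calls were made, Dnmt3b always among them. Otx2 (0.03 ± 0.28) and Dnmt3a (-0.10 ± 0.08) were not called here either. Trophectoderm markers summed to 35.3 to 43.5 CPM in controls and 24.4 to 25.2 with IAA, and primitive endoderm markers to 12.8 to 13.9 and 19.8 to 20.5, and their part was not tested.

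The size of the fall was compared between the experiments in a fit of both, and no member of 6 was called where 2.29% of genes were (2 at an unadjusted p under 0.05, none by DESeq2). Zic2 had the clearest difference, with a log2 change 0.36 ± 0.09 nearer to 0 in the initial experiment (adjusted p = 0.00515), just under the 1.3-fold limit. For the others the difference ran from -0.07 to 0.20, and the widest interval, that of Otx2, was -0.52 to 0.44.

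**Figure D2:**
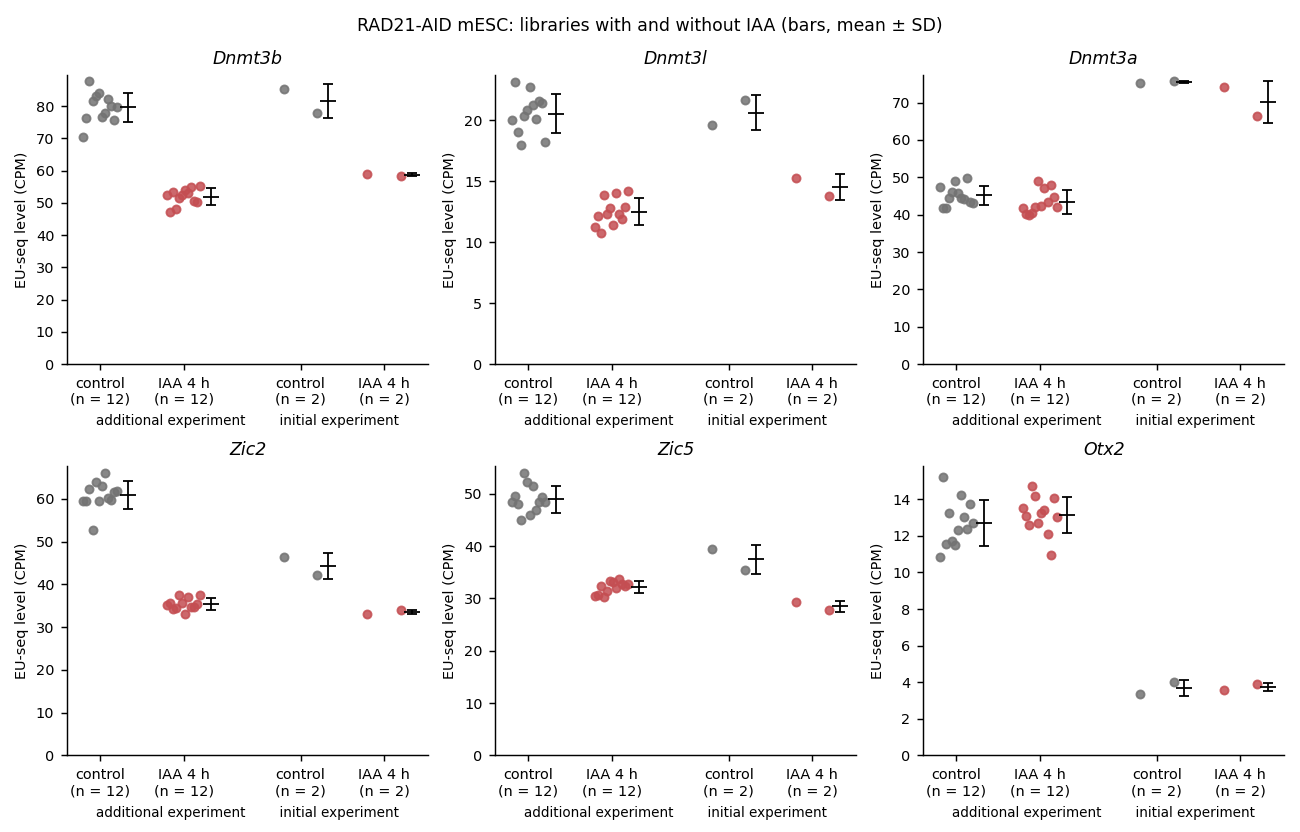
EU-seq level in CPM (linear axes from 0) of the 6 tested genes in GFP-AID-Rad21 mESCs. Points are libraries, grey for controls and red for 4 h of IAA, with mean ± SD beside them. Zic2, Zic5, Dnmt3b and Dnmt3l separate completely in the additional experiment, with 12 libraries a side, and in the initial one, with 2. Dnmt3a, which was not called, also separates in the initial experiment, by less. Otx2 differs between the experiments but not with IAA.

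Windows around the annotated starts are shown for 3 of the 4 genes that fell, since they moved together. Capitals mark matches to AGGNGGC (N is any base) or its reverse complement. This is a short, loose stand-in for the core of the CTCF motif, and a match need not be a CTCF site. The windows run from 250 bases before to 50 bases after a RefSeq start (GRCm38.p6) and are written in the direction of the gene. Of the 8 genes, 6 had a window in the table used. Zic2 and Pou3f1 had none.
Dnmt3b, chr2:153649199-153649498, plus strand: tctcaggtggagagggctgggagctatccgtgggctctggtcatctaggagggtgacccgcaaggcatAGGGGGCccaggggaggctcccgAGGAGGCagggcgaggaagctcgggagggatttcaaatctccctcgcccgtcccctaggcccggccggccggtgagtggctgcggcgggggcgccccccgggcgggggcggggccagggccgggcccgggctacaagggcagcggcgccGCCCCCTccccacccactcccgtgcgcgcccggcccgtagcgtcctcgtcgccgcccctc
Dnmt3l, chr10:78049592-78049891, plus strand: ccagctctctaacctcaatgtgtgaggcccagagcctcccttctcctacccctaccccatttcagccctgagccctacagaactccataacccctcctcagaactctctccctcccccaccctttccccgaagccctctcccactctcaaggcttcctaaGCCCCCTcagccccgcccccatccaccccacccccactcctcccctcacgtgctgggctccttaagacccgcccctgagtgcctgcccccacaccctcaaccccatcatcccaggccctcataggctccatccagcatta
Zic5, chr14:122465609-122465908, minus strand: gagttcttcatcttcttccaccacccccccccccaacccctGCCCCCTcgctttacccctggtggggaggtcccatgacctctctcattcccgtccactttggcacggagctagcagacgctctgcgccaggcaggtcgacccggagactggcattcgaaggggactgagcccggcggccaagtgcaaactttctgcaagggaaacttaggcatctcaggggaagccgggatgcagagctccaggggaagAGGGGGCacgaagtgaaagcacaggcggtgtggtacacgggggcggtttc
The Dnmt3b window holds 3 matches, the Zic5 window 2 and the Dnmt3l window 1. Of all 32851 windows, 29.4% hold at least 1 match. The windows hold 76% G and C for Dnmt3b and 62.7% for both others, against a median of 52.7%, and the share was not adjusted for this. Dnmt3a, which was not called, has 3 windows in the table. That of the long form holds 1 match at 82.3% G and C, a second one near it 2 at 81%, and that of the short form 5 at 74%, more than any window of a gene that fell. The windows of Fgf5 and Otx2 hold none. No Otx2 window lies at the start of the counted transcript (48673819), and the nearest ends at 48667894, so that start was not searched. The GC box GGGCGG, searched on both strands, occurs 4 times in the Dnmt3b window, 2 times in that of Dnmt3l and 1 time in that of Zic5, and 35.7% of all windows hold it. A match is a description of letters, and binding was not measured here.

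Other genes of the same states fell in part after 4 h without RAD21 in the additional experiment, where 12.3% of all genes were called. Of 14 tested further formative and primed genes 6 were called lower and none higher, with a median of -0.24. The ETS factor gene Etv4, a target of FGF signalling, changed by -1.43 ± 0.05 and the bHLH gene Tcf15 by -1.05 ± 0.06. Of 18 naive genes 6 were lower (median -0.18), with Klf5 at -0.92 and Prdm14, which encodes a repressor of Dnmt3b, at -0.90, and the naive sum went from 6040 to 6400 CPM in controls to 5420 to 5640. Of 5 core genes 3 were lower, among them Lin28a (-0.84), Sox2 (-0.38) and Pou5f1 (-0.38), while Nanog changed by -0.06. Of 9 tested genes of DNA methylation and its removal 2 were lower, the dioxygenase gene Tet2 (-0.63) and the imprint guard Zfp57 (-0.50). Dnmt3c, Dnmt3b's neighbour and paralog, was too low to test, at 0.398 ± 0.144 CPM (SD, n = 12) in controls and 0.802 ± 0.337 with IAA (SD, n = 12). In the initial experiment, where 4.74% of all genes were called, 0 of 14 formative, 4 of 18 naive, 2 of 5 core and 2 of 9 methylation genes were lower. None of them was higher. The marker lists of other cell types split in the additional experiment. Of 4 tested neural markers Egfr was lower (-0.84), of 4 endoderm markers Gata6 was lower (-0.48) and Pdgfra higher (1.11), of 3 trophectoderm markers Tfap2c was lower (-1.07) and Cdx2 higher (0.51), and Thy1, the 1 fibroblast marker tested, was lower (-0.75). None of the 2 tested paralogs was called.

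Loss of CTCF for 6 h gave no call among the 6 tested members when replicates were treated as independent, against 3.36% of all genes (edgeR, 1 member at an unadjusted p under 0.05, 1 called by DESeq2). The clearest value was that of Dnmt3l. It stood at 8.55 and 10.7 CPM in unstranded controls and 5.28 and 6.45 with IAA, and at 12.2 and 17.0 in stranded controls and 6.67 and 10.0 with IAA. Within each library type both depleted libraries lay below both controls. The log2 change was -0.72 ± 0.18, with an adjusted p of 0.0707 in edgeR and 0.0106 in DESeq2.

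Libraries with the same number deviated together in this experiment (correlation 0.416 and 0.826 in the 2 library types), and the numbers were therefore also used as a block. With the block Dnmt3l (-0.73 ± 0.11, adjusted p = 0.000443) and Otx2 (-0.79 ± 0.16, adjusted p = 0.0027) were called lower, and the count over all genes went from 524 to 2201. Otx2 stood at 7.63 and 16.7 CPM in unstranded controls against 3.31 and 8.10 with IAA, and at 7.72 and 16.9 in stranded controls against 3.33 and 13.9. Each depleted library lay below the control of its own number, although the groups overlap, and without the block the adjusted p was 0.491. Without both stranded libraries numbered 2, Dnmt3l was called at -0.72 (adjusted p = 0.0129), and without both numbered 1 at -0.70 (0.0177).

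Dnmt3b, at 33.9 and 36.0 CPM in unstranded controls and 34.2 and 36.4 with IAA, changed by 0.04 ± 0.20. Zic2 gave -0.24 ± 0.29, Zic5 -0.08 ± 0.33 and Dnmt3a -0.16 ± 0.27. With the block the same genes gave 0.04 ± 0.06 for Dnmt3b, -0.23 ± 0.09 for Zic2 (adjusted p = 0.0589), -0.10 ± 0.10 for Zic5 and -0.16 ± 0.05 for Dnmt3a (adjusted p = 0.0161, under 1.3-fold). Without both stranded libraries numbered 2 the values were 0.09 for Dnmt3b, -0.19 for Zic2, -0.10 for Zic5, -0.16 for Dnmt3a and -1.08 for Otx2, none of them called. In simulated independent counts with the trended spread of the controls, the test without the block called 62.1% of 2-fold and 22.4% of 1.5-fold changes. For the additional RAD21 experiment it called 100% and 98.5%. Libraries that deviate together by number, as these do, were not simulated, so the shares do not describe the blocked fit. In the unstranded libraries the effect of CTCF loss at 6 h was compared with that of RAD21 loss at 4 h in the initial experiment, and Dnmt3b was the 1 member of 6 called (5.5% of genes). Its log2 change was 0.54 ± 0.12 higher without CTCF than without RAD21 (adjusted p = 0.0308). That call is lost in DESeq2 (adjusted p = 0.0651) and without any of 5 of the 8 libraries, and time, line and experiment differ between the 2 effects. For Zic2 the difference was 0.13 ± 0.22 and for Zic5 0.46 ± 0.20, neither called. Otx2 gave -1.07 ± 0.61, and with the replicate number as a block it was called at -1.08 (adjusted p = 0.0119).

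Around the members, CTCF loss lowered Utf1 (-1.85 ± 0.23), the 1 of 13 tested formative genes called, and Foxd3 (-1.03 ± 0.13), 1 of 5 core genes. The germline and naive gene Dppa3 rose by 1.98 ± 0.23, 1 of 18 naive genes. None of 9 methylation genes was called, where 3.36% of all genes were. Trophectoderm marker sums were 45.0 to 51.9 CPM in controls and 57.8 to 80.0 with IAA over both library types, and primitive endoderm sums 5.66 to 21.6 and 11.6 to 37.8. Of 3 tested trophectoderm markers 1 was called, Tfap2c, which was higher (0.55 ± 0.11). Of 4 tested endoderm markers 0 were called. The part of these markers was not tested.

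In the CTCF-YF-AA line, dTAG13 changed no member by the call rule. At 2 h 0 of 6 were called (2.7% of genes, none at an unadjusted p under 0.05 and none by DESeq2), and at 4 h 0 of 7 (3.33% of genes, 1 at an unadjusted p under 0.05, none by DESeq2). Both times share the same 2 controls. Zic2 stood at 53.2 and 54.4 CPM in controls, 46.0 and 52.4 at 2 h and 52.0 and 52.9 at 4 h. Zic5 stood at 38.1 and 43.6, 45.4 and 50.8, and 46.5 and 49.4 CPM, with log2 changes of 0.21 ± 0.12 and 0.21 ± 0.11. Dnmt3b stood at 112 and 115 CPM in controls, 113 and 114 at 2 h and 109 and 113 at 4 h, and the 95% interval of its change at 4 h, -0.17 to 0.11, lies within 1.3-fold.

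Dnmt3a at 4 h was the member nearest to a call, at 32.8 and 33.4 CPM against 19.9 and 28.1 in controls, without overlap (0.41 ± 0.14, adjusted p = 0.102). It is called without control 2 (adjusted p = 0.0153), and with the replicate number as a block, 0.43 at an adjusted p of 0.0433, although the numbers do not pair these libraries. Dnmt3l gave 0.25 ± 0.34 at 2 h and 0.26 ± 0.29 at 4 h, and Otx2 0.21 ± 0.26 and 0.29 ± 0.23. Pou3f1, which passed the count minimum at 4 h, stood at 3.64 and 5.40 CPM against 2.24 and 3.45 (0.79 ± 0.39, adjusted p = 0.341).

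In dN-dC cells, degrading either truncated CTCF or both changed no member by the call rule. With AGB1 0 of 6 tested members were called (1.44% of genes), with dTAG13 0 of 5 (0.0587%), with both 0 of 5 (3.5%), and between AGB1 and dTAG13 0 of 6 (1.28%). At an unadjusted p under 0.05 there were 1, 0, 1 and 0 members in edgeR, and DESeq2 called none in any of the 4. The treated groups share 2 controls. Zic5 after both compounds was the nearest, at 40.0 and 44.1 CPM against 49 and 51.2 (-0.26 ± 0.09, adjusted p = 0.0684), and Zic2 after both stood at 59.0 and 61.1 against 64.2 and 67.1 (-0.14 ± 0.08). Both genes lay below their controls there without overlap. So did Dnmt3a (56.7 and 67.9 CPM against 68.4 and 68.7) and, narrowly, the untested Dnmt3l. Pou3f1, also untested, lay above its controls (0.9 and 1.25 against 0.625 and 0.704). Zic2 after AGB1 alone stood at 56.4 and 61 CPM, again below both controls (-0.15 ± 0.07, adjusted p = 0.403). Zic5 and Dnmt3a lay below both controls there too, and the untested Fgf5 and Pou3f1 above them. Dnmt3b gave 0.03, 0.00 and -0.03 with AGB1, dTAG13 and both (SE 0.07 each), and Otx2 0.02, 0.19 and -0.07 (SE 0.13 each). Dnmt3l was at 1.17 to 3.00 CPM in all 8 libraries of this line.

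**Figure D3:**
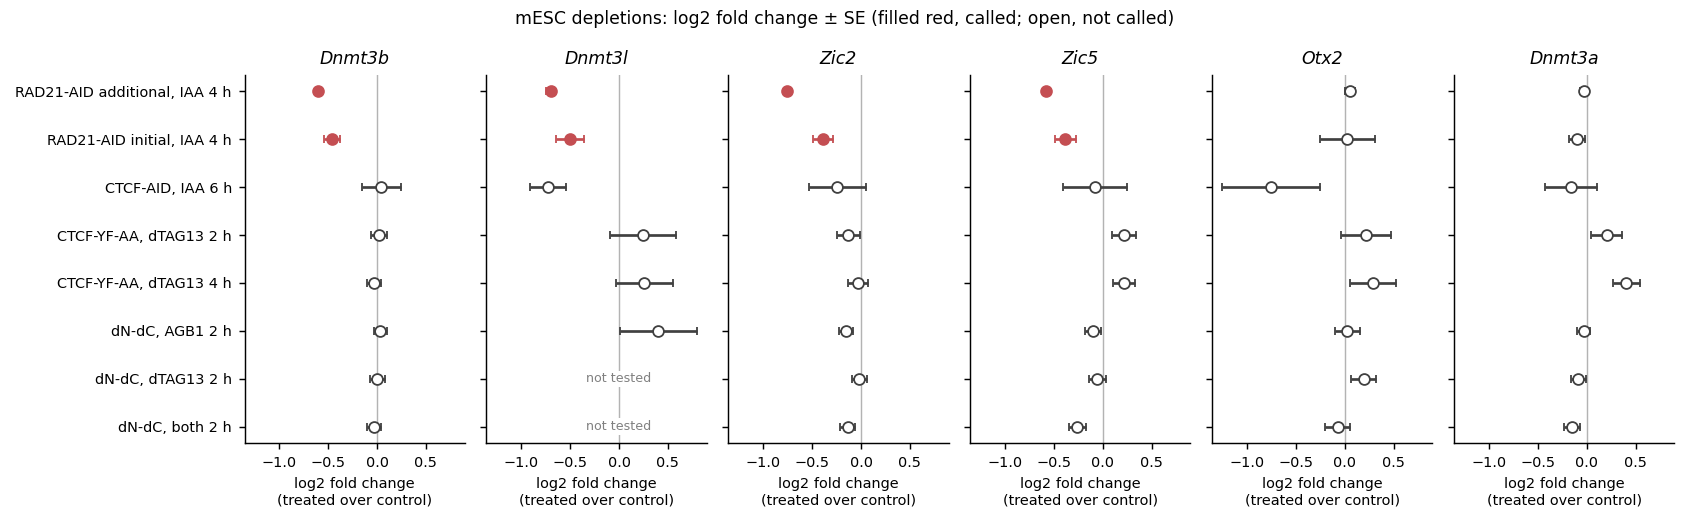
Log2 fold change of treated over control libraries with its SE for 6 genes (panels) in the 8 comparisons of depleted with control mESCs (rows). Filled red points were called and open points were not. The called values are the 8 negative ones of Zic2, Zic5, Dnmt3b and Dnmt3l after RAD21 loss, from -0.76 to -0.38.

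In NPCs Zic2 went up at each time after RAD21 was lost, where it had gone down in mESCs, and Zic5 passed the test as higher at 1 h only. Zic2 stood at 99.3 and 101 CPM in the NPC controls, at 140 and 169 after 2 h and at 133 and 145 after 4 h. In counts limited to the first 90 kb, the measure deposited for the 1 h libraries, it stood at 121 and 124 in the same controls and at 166 and 176 after 1 h. All treated libraries lay above both controls. The log2 changes were 0.46 ± 0.05, 0.62 ± 0.08 and 0.46 ± 0.05 at 1, 2 and 4 h (adjusted p = 1.22e-07, 0.000244 and 1.96e-10), and all 3 times share the 2 controls.

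Zic5 stood at 17.3 and 17.4 CPM in controls and at 24.3 and 24.7 after 1 h (0.48 ± 0.10, adjusted p = 0.000974). Over whole genes it stood at 14.1 and 14.3 CPM in controls, 15 and 19.8 after 2 h and 14.7 and 17.0 after 4 h, and was not called (0.30 ± 0.13 and 0.15 ± 0.11). Otx2 stood at 10.3 and 12.2 CPM in controls and at 14.3 and 15.1 after 4 h, without overlap (0.38 ± 0.12, adjusted p = 0.00485), just past 1.3-fold. DESeq2 (adjusted p = 0.0631) and the fits without control 2 (0.1) or without the first 4 h library (0.0533) do not call it. At 1 h, in counts of the first 90 kb, Otx2 stood at 17.4 and 17.6 CPM against 12.5 and 14.9. Its change of 0.34 ± 0.12 passed the adjusted p (0.0425) but was under 1.3-fold. At 2 h it stood at 14.1 and 15.3 CPM against 10.3 and 12.2 (0.37 ± 0.14, adjusted p = 0.0713). Neither change was called. Fgf5, which passed the count minimum at 1 h only, stood at 0.945 and 1.07 CPM in controls and at 1.66 and 1.81 after 1 h (0.77 ± 0.34, adjusted p = 0.129). Single libraries decided some of these results. Without the second 2 h library Zic5 was called (0.46, adjusted p = 0.00187), as was Pou3f1 as lower (-1.99, 0.00515), and Otx2 was called at 2 h without the first 2 h library (0.46, 0.0178) and at 1 h without control 1 (0.47, 0.0194).

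The calls were 2 of 7 tested members at 1 h (5.09% of genes), 1 of 6 at 2 h (9.34%) and 2 of 6 at 4 h (16.7%), all of them higher, while more of all genes were called lower (1692) than higher (1001) at 4 h. Dnmt3a was lower at 4 h with an adjusted p of 0.0151 (edgeR) but by less than 1.3-fold, so it was not called. Its libraries with 4 h of IAA lay below both controls. Dnmt3a changed by 0.00 ± 0.04, -0.12 ± 0.09 and -0.14 ± 0.04, and Dnmt3b by -0.12 ± 0.15, -0.11 ± 0.18 and -0.38 ± 0.15, with 7.33 and 9.31 CPM in controls and 6.32 and 6.67 at 4 h (adjusted p = 0.0726, and 0.0181 without control 1). Pou3f1 changed by -0.65 ± 0.34, -0.52 ± 0.56 and -0.48 ± 0.33, with 1.3 and 1.65 CPM in controls and 1.06 and 1.08 at 4 h (adjusted p = 0.301). At 4 h the neural marker sum was 1300 to 1360 CPM against 1610 to 1680 in controls, the fibroblast sum 2810 to 2910 against 3290 to 3640 and the primitive endoderm sum 365 to 366 against 328 to 331, and their part was not tested. Of the 3 endoderm markers tested, Gata6 (-0.65) and Dab2 (-0.45) were called lower and none higher.

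The effect of 4 h of IAA was then compared directly between NPCs and the additional mESCs, and 3 of 7 tested members were called, all with a higher log2 change in NPCs (18.2% of genes). Zic2 differed by 1.23 ± 0.06 (adjusted p = 3.92e-24), from -0.76 in mESCs to 0.46 in NPCs. Zic5 differed by 0.75 ± 0.10 (adjusted p = 3.11e-09), from -0.59 to 0.15. Dnmt3l differed by 1.56 ± 0.50 (adjusted p = 0.00966), yet its NPC libraries stand at 0.194 to 0.853 CPM, and without NPC control 2 or the second 4 h library the adjusted p is 0.177 or 0.22. Otx2 differed by 0.34 ± 0.13 (adjusted p = 0.0244), under 1.3-fold, and for Dnmt3b the difference of 0.24 ± 0.14 had an adjusted p of 0.156. Cell type and experiment cannot be told apart in this comparison.

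Among the other genes in NPCs at 4 h, Sox2, the core factor kept by neural progenitors, rose by 0.48 ± 0.07, and Pou3f2, a neural paralog of Pou3f1, by 0.41 ± 0.09, 1 of 5 tested paralogs. Of 11 tested formative genes Tcf15 was higher (0.57) and Fgf15 lower (-1.05). Tet2 was lower (-0.45), the 1 of 9 methylation genes called. Of 13 tested naive genes 4 were lower and 1 higher, and of 11 neural markers 2 were lower, Egfr by -2.40, and 2 higher, Hes5 by 1.2. These counts stand beside 16.7% of all genes called at 4 h. Levels were low for Hes5 (median 1.28 CPM over NPC libraries) and for naive genes such as Nanog (1.49).

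A-485 for 1 h gave the largest changes of the 6 tested members among all treatments, in counts limited to the first 90 kb. All 6 tested members were called, 5 lower and 1 higher, where 44.5% of genes were called. Zic2 stood at 121 and 124 CPM in controls and 17.9 and 21.1 with A-485 (-2.79 ± 0.08), Zic5 at 17.3 and 17.4 and at 2.29 and 2.91 (-2.89 ± 0.17), and Otx2 at 12.5 and 14.9 and at 1.94 and 2.59 (-2.73 ± 0.20). These 3 genes fell by 85 to 86.5%, with adjusted p of 7.22e-14, 7.07e-10 and 9.5e-09.

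Dnmt3a fell from 227.6 and 235.8 CPM to 80.7 and 91.0 (-1.58 ± 0.07), and its short row from 141 and 143 to 84.1 and 101 (-0.76 ± 0.08). The long body of 107.414 kb is cut at 90 kb here, and the short one of 22.7 kb starts 84714 bases into it. The 2 rows thus cover mostly different stretches in this measure. Pou3f1 stood at 1.60 and 2.01 CPM in controls and at 0.782 and 0.839 with A-485 (-1.3 ± 0.37, adjusted p = 0.0108), a call that DESeq2 does not make (adjusted p = 0.086) and that is lost without control 2 (0.107). Dnmt3b was the exception and rose from 8.99 and 11.3 CPM to 21.6 and 22.0 (0.95 ± 0.13, adjusted p = 2.62e-06). Fgf5, too low to test, had 0.945 and 1.07 CPM in controls and 0.12 and 0.323 with A-485. The median log2 change of the 6 members was -2.16, beside -0.11 over all tested genes, and 9 of 10 formative genes, all 5 paralogs, all 10 neural markers and all 6 fibroblast markers tested were lower as well. These 2 controls are those of the IAA time course.

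**Figure D4:**
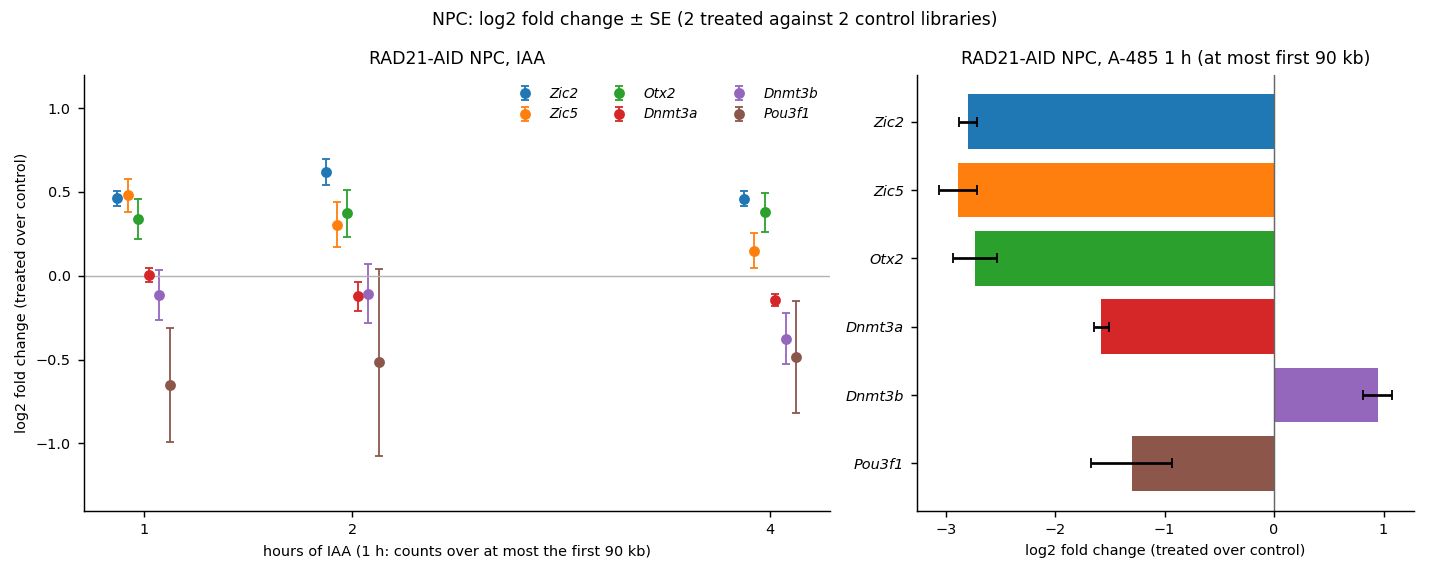
Log2 fold change over control with its SE in GFP-AID-Rad21 NPCs, for 6 genes after 1, 2 and 4 h of IAA (left, points offset sideways for legibility) and after 1 h of A-485 (right, bars from 0). Zic2 stays between 0.46 and 0.62 after IAA and falls to -2.79 with A-485, and Dnmt3b is the only gene of the 6 that rises with A-485, by 0.95.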

How the data were processed

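Newly made RNA was labelled with 5-ethynyl uridine, captured and sequenced. The authors mapped the reads with BWA to mm10, kept those with a mapping quality of at least 10, and deposited the HTSeq read counts of representative transcripts over their gene bodies. For the NPC 1 h and A-485 libraries these counts stop 90 kb from the start, and their controls were taken the same way. The submitters' notes also name SAMtools 1.4, bedtools, cutadapt, deepTools and DESeq2. Whether strand was used in counting is not given in the sources used here. The authors used the annotation GENCODE M25, and symbols and positions here come from GENCODE M21 on the same build (GRCm38), which held 27455 of the 27665 transcripts, 159 of them under another version, and left 210 unnamed. All 62 columns of counts are of these 60 libraries, and 0 were left unused.

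Libraries were grouped by genotype, experiment, cell type and treatment as their titles give them, also the 18 libraries whose protocol text mentions triptolide. Counts were tested with edgeR 4.0.16 (R 4.3.3, limma 3.58.1) by the quasi-likelihood test, with TMM scaling and Benjamini-Hochberg adjustment over all rows whose mean count was above 20 in at least 1 group of the fit. Log2 fold changes were then centred on the median of the genes above 15 TPM. The p-value tests the value before centring. A gene was called at an adjusted p under 0.05 and a centred change of at least 1.3-fold. The GFP-AID-Ctcf fit had library type as a covariate. All comparisons of untreated cells came from a single fit of the controls of every untreated group. Their SE and p-values therefore use a spread estimated over all these controls, not over the compared libraries alone. Levels are CPM, counts scaled to a common library size with TMM-scaled totals. Where library ranges are said not to overlap, this is a description, and the share over all genes was not counted. The whole-gene-body library totals ran from 4027449 to 21898781 counts. Replicates of a group correlated at 0.95 to 0.993 over genes on the log2 scale, and none were as close as sampling noise alone would make them (chi-square per degree of freedom of 1.44 or more in all 151 pairs). The labels do not tie replicates to separate cultures, so p-values measure the spread between libraries, which may be technical.

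The members and the 9 gene lists were chosen with earlier results of these data known. The genes named are the 8 members in every comparison. From each other list, at most the 2 called genes with the largest change are named in a few comparisons, besides Dnmt3c, Otx1, Nanog, Pou5f1 and Sox2, and 1 further gene that the rule named is not reported here. Otx1 and Pou3f3 had no row by symbol. Promoters are RefSeq's on GRCm38.p6.

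Replicate numbers of controls and treated GFP-AID-Ctcf libraries went together (correlations of deviations of 0.416 unstranded and 0.826 stranded). The test without the replicate block was tried on simulated data, drawn independently with the trended spread of the controls. It called 27.3%, 73.1% and 89.1% of genes changed by 1.3-, 1.5- and 2-fold in the initial RAD21 comparison (14784 genes), 50.7%, 98.5% and 100% in the additional one (15439 genes), and 3.03%, 22.4% and 62.1% in the GFP-AID-Ctcf one (15114 genes). Alternatives were DESeq2 1.42.0, RLE scaling, no filter, no centring, a 2-fold rule, the replicate block, each library left out, the compared groups alone, each library type or batch alone, and exonic length. Leaving out both stranded libraries of a number was added after seeing the data.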

Additional observations from a re-analysis of the deposited data

Results flagged for a closer look

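Of the 19 tests of whether a member responded differently to depletion in 2 cell types or experiments, 6 had an adjusted p under 0.05 by edgeR. In these differences a positive value means that the first-named comparison lay higher. Between NPCs and the additional mESC experiment, both after 4 h of RAD21 depletion, the log2 fold changes differed by 1.23 ± 0.06 (SE) for Zic2 (adjusted p = 3.92e-24), 0.75 ± 0.10 for Zic5 (adjusted p = 3.11e-09), 1.56 ± 0.50 for Dnmt3l (adjusted p = 0.00966) and 0.34 ± 0.13 for Otx2 (adjusted p = 0.0244). The Otx2 difference was under 1.3-fold, and the Dnmt3l difference missed the threshold without NPC control 2 (0.96, adjusted p = 0.177) or without the second 4 h NPC library (1.10, adjusted p = 0.22). Cell type and experiment cannot be told apart in these differences.

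Between the initial and the additional mESC experiments, the Zic2 fold changes differed by 0.36 ± 0.09 (adjusted p = 0.00515), which was under 1.3-fold. That difference was called without initial control 1 (0.43, adjusted p = 0.00432) or without the first initial IAA library (0.38, adjusted p = 0.028). Between CTCF depletion and the initial RAD21 depletion, the Dnmt3b fold changes differed by 0.54 ± 0.12 (adjusted p = 0.0308), and DESeq2 gave an adjusted p of 0.0651.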

How the results depend on the processing

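Counts are of the 8 members called. In mESCs, the initial RAD21 count of 4 was 1 by DESeq2, 0 at 2-fold and 1 to 3 with a library left out, and the additional count was 0 at 2-fold. The GFP-AID-Ctcf count of 0 was 1 by DESeq2, 2 with the replicate block, 1 without both stranded libraries numbered 1 or both numbered 2, and 0 to 1 with a library left out. The Y226A/F228A count of 0 at 4 h was 1 with the replicate block and 0 to 1 with a library left out.

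In NPCs, the RAD21 counts of 2 at 1 h, 1 at 2 h and 2 at 4 h were 0 at 2-fold, and with a library left out they ran 2 to 3, 1 to 3 and 1 to 3. At 4 h DESeq2 and the replicate block each gave 1. Among untreated cells, initial against additional went from 2 to 1 at 2-fold and 4 without centring. The dN-dC cells against stranded GFP-AID-Ctcf cells went from 4 to 1 at 2-fold and 1 with those groups fitted alone. Stranded against unstranded cells went from 5 to 0 under both settings and 0 to 6 with a library left out. Dnmt3a in dN-dC against stranded GFP-AID-Ctcf cells turned from -0.17 to 0.48 (adjusted p = 8.65e-05 by edgeR) without stranded control 2, and was -0.55 without stranded control 1. The difference of effects between CTCF and RAD21 depletion went from 1 called to 0 by DESeq2, 2 without the filter, 2 with the replicate block and 0 to 2 with a library left out. The difference between initial and additional RAD21 depletion had 0 called, and 0 to 1 with a library left out. Per kb of exon, Zic2 came first in 3 of 7 untreated groups in place of 7. The causes were not tested.

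Over all genes, these counts moved by more than 1.5 times under another setting. The initial RAD21 count of 719 was 340 by DESeq2, and the additional count of 1932 was 2920 without the filter. The GFP-AID-Ctcf count of 524 was 894 by DESeq2, 2201 with the replicate block, 288 without the covariate, 1089 in unstranded and 0 in stranded libraries alone. By DESeq2 the Y226A/F228A counts of 378 at 2 h and 475 at 4 h were 211 and 275, and the dN-dC count of 482 with both agents was 273. The dTAG13 count of 8 was 13 with the replicate block. With those groups fitted alone, 7129 and 5229 calls among untreated dN-dC and library type comparisons became 2856 and 1143. The difference of effects between CTCF and RAD21 depletion went from 902 to 1463 without the filter and 1925 with the replicate block. Without both stranded libraries numbered 1 or 2 the GFP-AID-Ctcf count was 1320 or 2025. With a library left out, counts moved as far in 7 comparisons, to 352 to 942 (initial RAD21), 209 to 784 (GFP-AID-Ctcf), 6 to 13 (dTAG13 in dN-dC), 1119 to 2391 in place of 1494 (NPC 2 h), 2404 to 8230 (library type), 379 to 1335 (CTCF against RAD21) and 195 to 441 in place of 367 (initial against additional). The 2-fold rule lowered all the counts over genes of the comparisons it was run on, to between 0 and 8137.

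Of the members' other values, 748 kept direction and side of the threshold under another setting, 10 came past it and 44 lost it. With a library left out the counts were 510, 19 and 32. Outside the GFP-AID-Ctcf cells the replicate numbers did not pair libraries. In the additional experiment the same-numbered correlations ran from -0.00297 to 0.28, and 0.125 at NPC 2 h rested on 2 pairs. Batch CC53 alone, or batch as a covariate, gave the same member calls. Fgf5 and Pou3f1 had few counts, so most comparisons could not test Fgf5, and several could not test Pou3f1.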

Other observations

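Untreated NPCs differed from untreated additional mESCs in 74.1% of all tested genes, and the shares of the lists below are to be read beside that. Of 17 other formative and primed genes tested, 10 were called lower and 6 higher, with a median log2 difference of -0.81 against 0.09 over all genes tested. Of 18 naive genes 17 were lower and 0 higher (median -6.76), and all 5 core pluripotency genes were lower (median -7.68). Of 9 genes of the DNA methylation machinery 6 were lower and 3 higher (median -1.35), and of 6 paralogs of the members 2 were lower and 4 higher (median 6.42). Zic1, a neural relative of Zic2, was higher by 8.93 on the log2 scale.

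The short row of Dnmt3a lies within the long one and covers 21.1% of its length, yet held 28.2% to 48.7% of its counts, depending on the library. The share was 40.3% to 40.4% in NPC controls and 43.7% to 48.7% after 2 h of IAA. It was 44.1% to 44.9% in unstranded GFP-AID-Ctcf controls and 36.2% to 38.9% after IAA. These shares were not tested between groups, and reads in the shared stretch cannot be assigned to either transcript.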
